A study of Homo sapiens with 24 samples.

Results

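The zinc finger protein genes described here were 55 gene symbols that began with ZNF, ZFP or ZSCAN. They were taken from the study's published list of genes that differed between FOXP1- and GFP-expressing neuroblastoma cells, of which the part available here holds 3504 symbols. The list has a sheet for each line (IMR-32, then CHP-212, then SK-N-BE(2)), and a gene is on a sheet because the FOXP1 and GFP arrays of that line differed. The members were therefore chosen on the FOXP1 against GFP contrast of the line that lists them, and their values in that contrast are given as a description. IMR-32 listed 33 members, CHP-212 listed 23 and SK-N-BE(2) listed 1, with ZNF649 and ZNF385D on 2 sheets. Each symbol had 1 probe in the list.

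The study examined how FOXP1, a forkhead transcription factor, acts in neuroblastoma, a childhood tumor of the sympathetic nervous system. In each of the 3 established lines, a retroviral tetracycline-controlled vector (pRevTRE, with the transactivator rtTA) carried FOXP1 cDNA in one polyclonal culture and eGFP in the other. RNA was taken 0, 12, 24 and 72 h after doxycycline (2 μg/ml) was added, so that 24 one-colour arrays made up 6 groups. Each group thus held 4 time points of a single culture and no separately transduced ones, so no p-value below covers the spread between such cultures. Comparisons of FOXP1 with GFP cells or of lines measure the spread between time points, and comparisons of times the spread of the change over the 6 cultures. Levels are log2 signals relative to the 75th percentile of the array, and differences are log2 FOXP1 minus GFP.

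Zinc finger proteins of the C2H2 type hold a zinc ion between cysteines and histidines in each finger, and arrays of such fingers read DNA. Many carry a KRAB box, which recruits the corepressor TRIM28 and with it enzymes that lay down silent chromatin, and others carry a SCAN domain through which they pair. The KRAB genes lie in clusters, many of them on chromosome 19, and the promoters of several are known to be methylated in tumors.

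The FOXP1 transcript was read first. In IMR-32 its level at 0, 12, 24 and 72 h was 2.60, 2.76, 2.66 and 2.38 on the FOXP1 arrays and 1.05, 1.19, 1.39 and 1.18 on the GFP arrays. In CHP-212 it was 2.81, 3.28, 3.00 and 2.94 against 0.77, 1.21, 1.08 and 1.05. The FOXP1 cultures of these lines were higher at each time, already at 0 h, before induction. In SK-N-BE(2) the levels were 2.97, 2.84, 2.63 and 2.73 on the arrays labelled FOXP1 and 3.00, 3.30, 2.87 and 2.81 on the GFP arrays, so the FOXP1 probe read no higher under that label there. All values from this line below are given under the labels.

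Detection differed between slides, and most in CHP-212. Each slide held FOXP1 and GFP arrays of a line at 0 and 12 h or at 24 and 72 h. In CHP-212, between 53.9 and 60.4% of all probes were well above background on the slide of 0 and 12 h and between 78.0 and 81.5% on the slide of 24 and 72 h. On the early slide 21 and 24 of the 55 members were well above background on the FOXP1 arrays and 30 and 29 on the GFP arrays, while all 4 late arrays held 43 or 44. The IMR-32 arrays held 43 to 49 and the SK-N-BE(2) arrays 44 to 50. Of 16 markers of sympathetic neuroblasts 8 had a known probe, TH and DBH among them, and all 8 were measured well enough to test in SK-N-BE(2), 7 in IMR-32 and 6 in CHP-212. Over all 24 arrays, 14 members were well above background on every array, and ZNF705D was on none.

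**Figure D1:**
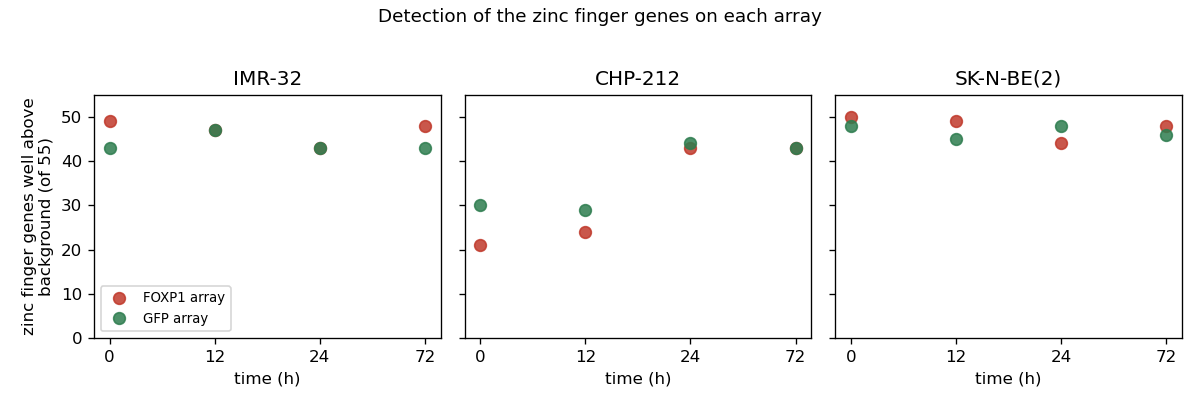
Number of the 55 zinc finger genes well above background on each array (vertical axis) at 0, 12, 24 and 72 h (horizontal axis), with 1 point per array. The 4 early CHP-212 arrays sit between 21 and 30, and the other 20 arrays between 43 and 50.

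The IMR-32 cultures differed most. A probe entered the limma test of a line when at least 4 of its 8 arrays had it well above background. It was called where the difference was 2-fold or more with an adjusted p under 0.05. Of the 33 members listed for IMR-32, 29 were tested and 27 were called. FOXP1 cells were higher for 12 of them and lower for 15. Among all probes tested there, 12.2% were called, 6.34% higher and 5.86% lower, and nothing is read from the members' count because the contrast chose them. The members not tested were ZNF214, ZNF385D, ZNF431 and ZNF439, of which ZNF385D and ZNF439 were not well above background on any IMR-32 array. All 29 tested members differed in the same direction at all 4 times, and 25 of the 27 called members already differed at least 2-fold at 0 h.

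Some members listed for IMR-32 lay close to a 2-fold difference, the limit that the study's methods state. Just inside it was ZNF350, a KRAB protein known as ZBRK1 that works with BRCA1, at a log2 difference of 1.02 (2.02-fold). Without the GFP array of 0 h its difference was 0.93, and without the FOXP1 array of 0 h it was 0.97, both under 2-fold. Just outside was ZNF580 at -1.00, followed by ZNF684 at -0.99. ZNF580 passed 2-fold without any single array other than the GFP array of 72 h or the FOXP1 array of 0 h, and ZNF684 without the GFP array of 24 or 72 h or the FOXP1 array of 0 or 72 h.

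The difference of 5 listed members came near to on or off in IMR-32: 4 of 4 arrays of one culture were well above background and at most 1 of 4 of the other. They were ZNF671, ZNF114 and ZNF560, on in the FOXP1 culture, and ZNF334 and ZNF556, on in the GFP culture. Of the 43291 probes on the array, 1.67% had such a pattern in IMR-32. The share was 0.0785% for CHP-212 and 0.176% for SK-N-BE(2), and 0 members had the pattern in these lines. Where a culture was at background on all 4 arrays, the fold is a lower bound. It sets the brighter mean against the dimmer culture's mean of, per array, the higher of the gene's own signal and the lowest signal among probes well above background. Where only some arrays of the dimmer culture were at background, those arrays take the same floor and the fold is again given as at least that size. Such bounds hold for the processing used here and are not kept under every alternative. In RNA of whole cultures, fewer cells that express a gene and less RNA per cell cannot be told apart.

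ZNF671, a KRAB gene whose promoter is often methylated in tumors, had levels of 1.45, 1.21, 1.41 and 1.18 in FOXP1 cells of IMR-32 at 0, 12, 24 and 72 h and of -7.42, -7.33, -6.82 and -7.16 in GFP cells. The GFP culture was at background on all 4 arrays and the FOXP1 culture far above it, at least 236-fold higher. In CHP-212 both cultures expressed the gene, at -0.99, -1.83, -0.98 and -1.25 in FOXP1 cells and -0.58, -0.48, 0.16 and -0.15 in GFP cells. In SK-N-BE(2), GFP cells had a mean of 0.09 ± 0.15 (SD, n = 4) and the culture labelled FOXP1 one of -0.17 ± 0.09 (SD, n = 4). Of the 6 cultures, the GFP culture of IMR-32 was the only one without a signal above background for this gene.

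ZNF300, another KRAB gene, had levels of 0.90, 0.59, 1.02 and 1.06 in FOXP1 cells of IMR-32 and of -4.63, -4.85, -4.90 and -4.73 in GFP cells. Both cultures were measured on every array, and the FOXP1 culture was 50.8-fold higher with no overlap. In CHP-212 and SK-N-BE(2), the GFP cultures had levels of 0.03 ± 0.21 (SD, n = 4) and 0.47 ± 0.23 (SD, n = 4). Again the IMR-32 GFP culture stood below the rest.

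ZNF114 had levels of -3.88, -4.09, -3.98 and -4.03 in FOXP1 cells of IMR-32 and of -8.70, -8.60, -8.39 and -8.45 in GFP cells, at least 5.96-fold higher. ZNF560 had levels of -4.39, -4.69, -4.47 and -4.48 against -8.75, -9.44, -8.38 and -8.47, at least 4.17-fold higher. Both were weak but steady over time in the FOXP1 culture and at background on every GFP array. ZNF560 was also at background on all 8 CHP-212 arrays and was measured on all 8 of SK-N-BE(2), with means of -2.33 ± 0.28 (SD, n = 4) and -2.30 ± 0.17 (SD, n = 4).

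ZNF334, a KRAB gene whose promoter can be methylated in tumors, showed the opposite pattern. Its levels were -8.04, -8.30, -8.05 and -8.78 in FOXP1 cells of IMR-32 and -1.29, -1.33, -0.47 and -0.70 in GFP cells, at least 53.2-fold lower. ZNF556 had levels of -6.60, -8.80, -7.84 and -8.97 in FOXP1 cells and of -3.70, -3.21, -2.69 and -2.77 in GFP cells, at least 11.4-fold lower. Here the FOXP1 culture was at background on all 4 arrays. ZNF334 was at background on all 8 CHP-212 arrays too, whereas both genes were measured on all 8 SK-N-BE(2) arrays.

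ZNF649 was one of the 2 members on the sheets of both IMR-32 and CHP-212. Its levels in IMR-32 were -1.31, -1.53, -1.45 and -1.10 in FOXP1 cells and -5.50, -5.47, -5.18 and -5.56 in GFP cells, a 17.0-fold higher signal with no overlap. In CHP-212 they were -2.86, -2.81, -3.31 and -3.47 against -5.61, -5.13, -4.98 and -4.96, at least 2.95-fold higher, with the GFP culture well above background on 2 of 4 arrays, those of 24 and 72 h. The FOXP1 culture was thus the higher of the pair at all 4 times in both lines. Among the alternatives the log2 difference of ZNF649 in CHP-212 went down to 1.04, smaller than that bound. In SK-N-BE(2), which does not list the gene, the difference was 0.06, higher at 1 of 4 times, and it turned to -0.01 without the GFP array of 72 h, to -0.22 without the array labelled FOXP1 of 24 h and to -0.09 within the slide of 0 and 12 h.

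**Figure D2:**
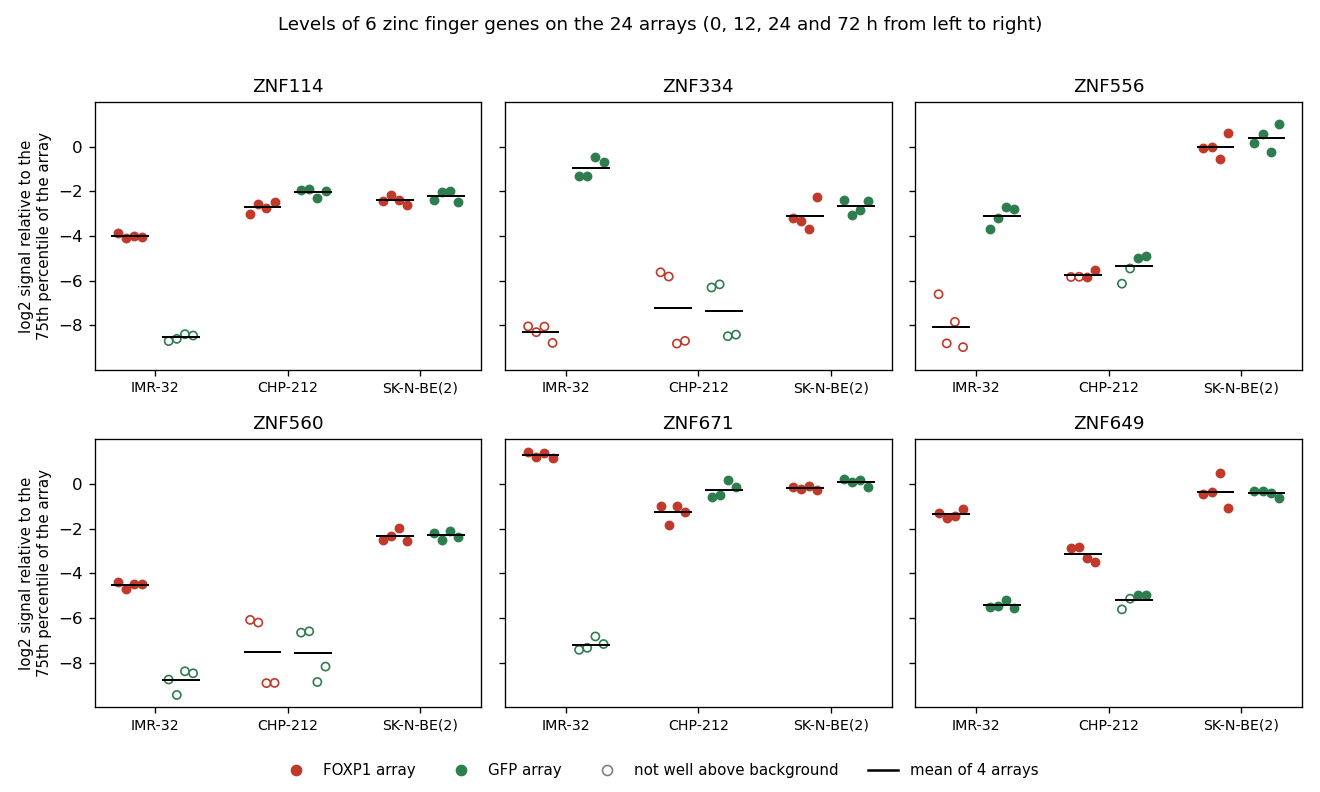
Levels of ZNF114, ZNF334, ZNF556, ZNF560, ZNF671 and ZNF649 on the 24 arrays, as log2 signal relative to the 75th percentile of the array (vertical axis), by line and culture with 0, 12, 24 and 72 h from left to right. Open points are arrays not well above background, which ZNF671 has in the GFP culture of IMR-32 alone.

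The other members called in IMR-32 differed less or were dim in one culture. ZNF239, also named MOK2, and ZNF533, a matrin-type zinc finger gene now named ZNF385B, were at least 4.56-fold and 8.40-fold higher in FOXP1 cells, with the GFP culture well above background on 2 of 4 arrays for each. For ZNF239 the cultures were close at 12 h, at -3.85 against -4.00, where both arrays were well above background. Further higher members were ZNF704 at a log2 difference of 1.79, ZNF577 at 1.52, ZNF502 at 1.30 and ZNF23 at 1.11. Without single arrays the ZNF239 call was lost, for GFP at 0 or 24 h and for FOXP1 at 0, 24 or 72 h, and that of ZNF23 without GFP at 12 h.

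Of the lower members measured on all 8 arrays of IMR-32, the largest differences were those of ZFP64, ZNF641 and ZNF592. ZFP64, a regulator of MLL in leukemia, had levels of -1.24, -1.02, -1.53 and -1.68 in FOXP1 cells and of 0.21, 0.48, 0.45 and 0.15 in GFP cells, 3.23-fold lower. ZNF641 had levels of -5.70, -5.41, -5.82 and -5.89 against -4.11, -4.06, -4.10 and -4.12, 3.05-fold lower. ZNF592, found in a complex with ZNF687 and ZMYND8, had levels of 0.98, 1.46, 1.27 and 0.78 against 2.99, 2.98, 2.39 and 2.25, 2.89-fold lower. The cultures did not overlap for any of these 3 genes. The remaining 10 lower members lay between -1.05 and -1.47, from ZNF426 to ZNF365, a gene known for the stability of fragile sites, and included ZNF593, a factor of ribosome assembly, at -1.07. Only ZNF702, now annotated as a transcribed pseudogene, had overlapping cultures among the 27 called. Its call was lost without GFP at 0, 12 or 24 h or FOXP1 at 12 or 72 h, that of ZNF593 without GFP at 0 or 12 h or FOXP1 at 72 h, and that of ZNF426 without GFP at 12 h or FOXP1 at 0 or 72 h. ZNF691 lost its call without GFP at 0 h, and ZNF703 without GFP at 0 h or FOXP1 at 0, 24 or 72 h.

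The called count in IMR-32 changed with the normexp alternative. It replaced the background removal, added an offset of 50 and started from the median spot intensity, and which of these mattered was not tested. With the normexp correction, which moved the median of all tested probes to 0.221 in IMR-32 (0.143 for CHP-212 and 0.016 for SK-N-BE(2)), 10 members were called in IMR-32, 6 higher and 4 lower against 12 and 15. All 27 kept their direction, but of the 5 genes near on or off only ZNF671 kept its call, and ZNF300, ZNF649, ZFP64 and ZNF592 kept theirs. The log2 difference of ZNF649 fell from 4.08 to 2.61, while ZFP64 was at -1.32 and ZNF592 at -1.56. That of ZNF300, 5.67 in the main fit, was as low as 4.48 among the alternatives. With normexp the 5 genes near on or off were at 5.15 for ZNF671, -2.69 for ZNF334, 1.61 for ZNF114, 1.46 for ZNF560 and -1.04 for ZNF556. Each log2 difference was over 2-fold but below the bound given above, so those bounds hold only for the processing used here. ZNF641 lost its call, its difference going from -1.61 to -0.11. Within a slide, 19 members were called at 0 and 12 h and 23 at 24 and 72 h, and 27 with the slide as a block.

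**Figure D3:**
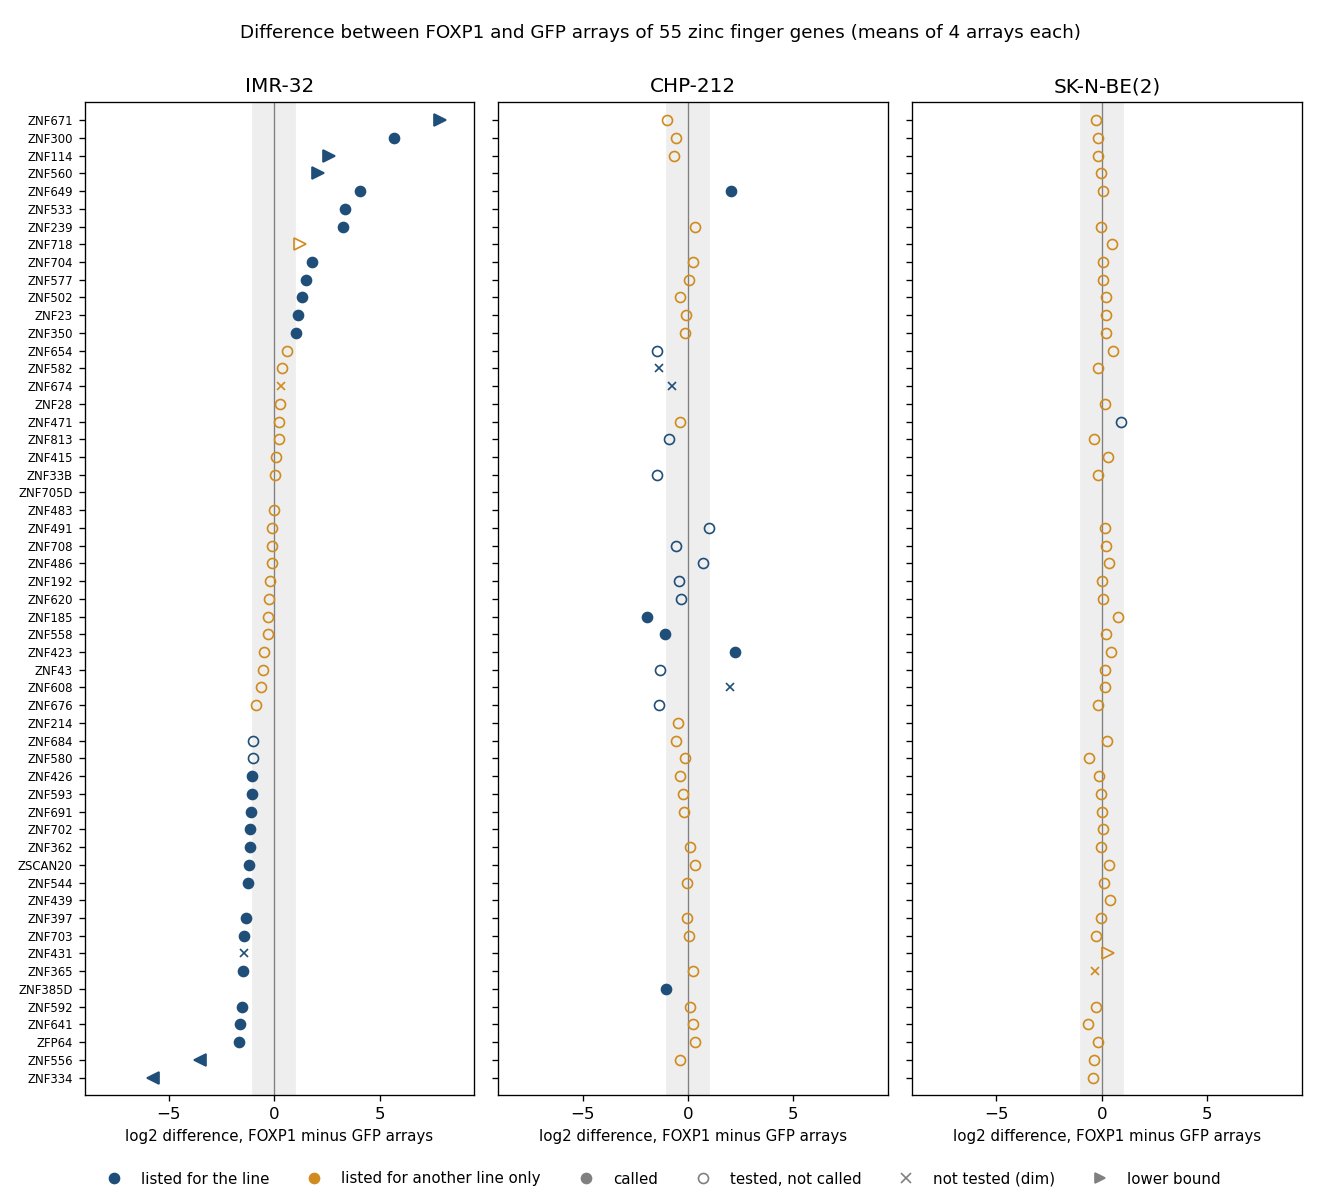
Log2 difference between FOXP1 and GFP arrays (horizontal axis, means of 4 arrays each) of the 55 zinc finger genes in each line, with triangles at a lower bound where a culture was at background on all 4 arrays. Where only some arrays of a culture were at background, the point is at the measured difference and not at the bound. ZNF385D in CHP-212 is thus drawn at -1.04, though it was at -0.88 with the dim arrays at their floor. Genes without a fold are not drawn, and the grey band marks differences under 2-fold. The 27 called genes of IMR-32 lie outside the band on both sides. Genes listed for another line only lie at or inside its edges in all 3 lines, except ZNF718, not tested in IMR-32, with a bound of 2.36-fold there.

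In CHP-212 fewer members were measured well. Of the 23 listed there, 15 were tested and 5 were called, 2 higher and 3 lower, beside 3.03% of all probes tested, 1.94% higher and 1.09% lower, from which nothing is read. None of the 23 was well above background on all 4 arrays of 0 and 12 h, 15 were on all 4 of 24 and 72 h, and 6 were on all late and no early arrays. The 8 not tested were ZNF28, ZNF415, ZNF483, ZNF582, ZNF608, ZNF674, ZNF705D and ZNF718.

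ZNF423, a partner of SMAD and EBF proteins that is needed for the response of neuroblastoma cells to retinoic acid, had levels of -2.34, -2.47, -3.48 and -3.47 in FOXP1 cells of CHP-212 and of -4.94, -5.34, -5.43 and -4.86 in GFP cells. It was at least 3.54-fold higher in FOXP1 cells without overlap, and the GFP culture was well above background at 24 and 72 h only. ZNF185, an actin-associated LIM-domain protein and not a C2H2 factor, had levels of -4.75, -4.40, -3.26 and -3.46 against -2.57, -2.01, -1.61 and -1.88, at least 3.03-fold lower. Its FOXP1 arrays of 0 and 12 h were not well above background. Among the alternatives the log2 difference shrank to as little as 1.13 for ZNF423 and -1.02 for ZNF185, both smaller than these bounds.

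ZNF558, a KRAB gene, had levels of -2.73, -3.75, -3.21 and -3.34 in FOXP1 cells of CHP-212 and of -2.36, -2.12, -2.09 and -2.02 in GFP cells, at least 2.16-fold lower. ZNF385D, a matrin-type zinc finger gene, had levels of -4.15, -4.26, -4.13 and -4.16 against -3.26, -2.98, -2.89 and -3.39, a log2 difference of -1.04 and thus just inside the threshold. Neither gene's cultures overlapped. Among the alternatives the log2 difference of ZNF558 shrank to as little as -0.58, smaller than its bound. ZNF385D was well above background on 2 of 4 FOXP1 arrays, and with the other 2 at their floor the difference was -0.88, outside the threshold. Just outside was ZNF491 at a log2 difference of 0.98, with 2 of 4 arrays at background in both cultures. With the dim GFP arrays at their floor it was at -0.01.

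The 5 calls in CHP-212 rested on few arrays. They numbered 2 without GFP at 12 h or at 24 h and 3 without GFP at 72 h or FOXP1 at 12 h, with ZNF649 and ZNF423 kept in each case. ZNF185 was lost in these 4 cases, and ZNF385D without the GFP array of 12 or 24 h. ZNF558 was lost without any single array except the FOXP1 array of 0 h. Within the slide of 0 and 12 h there were 0 calls and within that of 24 and 72 h there were 3, of ZNF649, ZNF185 and ZNF558, against 5 with the slide as a block.

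Members that a line's sheet does not list were left off it by the same FOXP1 against GFP contrast, apart from rows missing from the copy used here. The choice therefore favours few or no calls among them, and their values too are a description. In IMR-32, 19 of the 22 not listed were tested, and limma called 0, beside 12.2% of all probes tested, with 3 at an unadjusted p under 0.05. In CHP-212, 26 of the 32 not listed were tested and 0 were called, beside 3.03% of all probes tested, with 2 at an unadjusted p under 0.05. On the arrays labelled FOXP1 of SK-N-BE(2), 46 of the 54 not listed were tested and 0 were called, with 1 at an unadjusted p under 0.05, beside 0.720% of all probes tested, 0.426% higher and 0.294% lower. The methods' t-test with a 2-fold limit, which is the rule of the list itself, called 0 in each line. No share of all probes at that unadjusted p is given for these lines, and nothing is read from these counts.

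The unlisted members that were tested had these values. In IMR-32 their differences ran from -0.86 to 0.60 with a median of -0.11, against -0.01 over all probes tested. In CHP-212 the range was -1.00 to 0.31 and the median -0.12, against 0.02. For SK-N-BE(2) it was -0.63 to 0.78 and 0.04, against -0.01. ZNF718 was not tested in IMR-32, where its levels were -4.65, -5.32, -6.14 and -5.20 in FOXP1 cells (3 of 4 arrays well above background) and -8.43, -8.88, -8.26 and -8.33 in GFP cells, all at background. This was at least 2.36-fold higher without overlap, and the gene was called when no filter on dim probes was used. ZNF654, at 0.60 in IMR-32, was called within the slide of 24 and 72 h.

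Of the unlisted members tested in CHP-212, ZNF671 differed most. Its difference was -1.00, lower in FOXP1 cells at 4 of 4 times and with no overlap, while in IMR-32 the FOXP1 culture was the higher. ZNF114 was likewise lower in FOXP1 cells of CHP-212 at 4 of 4 times, at -0.67. In IMR-32 the unlisted members under an unadjusted p of 0.05 were ZNF423 at -0.50, ZNF608 at -0.64 and ZNF582 at 0.39. ZNF423 was lower at 4 of 4 times, ZNF608 higher at 1 of 4 and ZNF582 higher at 4 of 4.

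In SK-N-BE(2) the listed member was ZNF471, a KRAB gene also known as a target of promoter methylation. Its levels were -4.32, -4.59, -2.37 and -3.32 on the arrays labelled FOXP1 and -4.45, -4.85, -4.69 and -4.16 on the GFP arrays, 1.85-fold higher and not called. The array of 24 h stood highest, and the cultures overlapped. The log2 difference of 0.89 was 0.46 without that array, 0.19 within the slide of 0 and 12 h and 1.58 within that of 24 and 72 h. The unlisted member with the lowest p was ZNF641, at -4.66, -4.68, -4.72 and -4.92 on the arrays labelled FOXP1 and -4.06, -4.22, -3.91 and -4.28 on the GFP arrays. These did not overlap, at a difference of -0.63. With the time point as a block, the calls over all probes went from 245 to 477 with 0 members in either, and leaving out an array gave 127 to 213 over all probes.

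The next comparison was of times after doxycycline. The choice of members set no time against another, but its test used the spread over the times of a culture, so genes that moved over time were less likely to be listed. Counts of 0 below are therefore no sign of stability over time. The comparison took all 6 cultures together, with the culture as a block, and a call needed an adjusted p under 0.05. FOXP1 and GFP arrays of a line and time shared a slide, and their deviations correlated at 0.0535 to 0.67. The changes in the 6 cultures were thus not independent, which the p-values over time leave out. At 12 h against 0 h, limma called 0 of the 46 members tested, with 5 of 46 at an unadjusted p under 0.05. Of all probes tested 2.55% were called, 829 of the 852 lower at 12 h, and 13.3% had an unadjusted p under 0.05. The members' differences ran from -0.49 to 0.75 with a median of 0.02, as over all probes. ZNF426, a KRAB gene, had the largest, at 0.75 (adjusted p = 0.0545, limma), and was higher at 12 h in 6 of 6 cultures. ZNF577 was lower in 6 of 6 cultures, at -0.49 (adjusted p = 0.133, limma).

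The outcome changed with the setting. The normexp correction called 2 members at 12 h, ZNF426 at 0.74 (adjusted p = 0.00674, limma) and ZNF577 at -0.47 (adjusted p = 0.0445, limma). Testing only probes well above background on all 12 arrays called ZNF426 alone, with adjusted p = 0.0194 (limma). The share of all probes called also moved with the lines used, from 852 probes to 36 without SK-N-BE(2) and 69 without IMR-32.

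At 72 h against 24 h, limma called 0 of 46 members, with 5 at an unadjusted p under 0.05, and 0% of all probes tested were called, with 9.29% at an unadjusted p under 0.05. The members ran from -0.91 to 0.56, and their lowest adjusted p was 0.531. The 5 were ZNF397 at -0.44, ZNF544 at -0.29, ZNF671 at -0.27, ZFP64 at -0.25 and ZNF300 at 0.47. ZNF544 and ZFP64 were lower at 72 h in 6 of 6 cultures, as was ZNF641 at -0.18, ZNF397 in 5 of 6, and ZNF300 was higher in 5 of 6. ZNF671 was lower in the cultures that measured it and was at background in the IMR-32 GFP culture.

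The last comparison was between the GFP cultures of CHP-212 and SK-N-BE(2), for the 31 members listed for IMR-32 alone. Being off the sheets of these lines rests in part on the same GFP arrays, each set against the FOXP1 arrays of its line, but the choice set no line against another. Of the 31, 29 were tested and 11 were called, 3 higher and 8 lower in CHP-212, beside 30.1% of all probes tested, 14.1% higher and 16.0% lower. The median difference, CHP-212 minus SK-N-BE(2), was -0.35 over the members and -0.13 over all probes. Each line had its own slides, so line and slide cannot be told apart. Of the 11 called members, 5 (ZNF439, ZNF560, ZNF334, ZNF702 and ZNF214) were at background on all 4 arrays of one line and passed the filter only through the other. Another 3 (ZNF544, ZNF556 and ZNF365) had 2 of 4 arrays of one line at background, and the other line alone met the filter. The folds of these 8 are bounds and are given without a test, and the count of 11 supports nothing by itself.

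ZNF439 had levels of -6.47, -6.43, -8.86 and -8.62 in CHP-212 GFP cells and of 0.29, 0.05, -0.17 and 0.04 in SK-N-BE(2) GFP cells, at least 45.4-fold lower in CHP-212. ZNF544 had levels of -6.30, -4.05, -5.34 and -6.00 against 0.28, 0.48, 0.53 and 0.34, at least 41.2-fold lower, with 2 of 4 CHP-212 arrays well above background. The lines did not overlap for either gene. ZNF556, at background in FOXP1 cells of IMR-32, had levels of 0.16, 0.59, -0.25 and 1.02 in SK-N-BE(2) GFP cells. In CHP-212 it was at least 32.5-fold lower, at -6.13, -5.45, -4.96 and -4.87, with 2 of 4 CHP-212 arrays well above background. With normexp the log2 differences were -4.25 for ZNF439, -3.79 for ZNF544 and -3.92 for ZNF556, each smaller than its bound.

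Further genes at background on all 4 CHP-212 arrays were ZNF560, at least 8.93-fold lower than in SK-N-BE(2), ZNF334, at least 6.86-fold, and ZNF702, at least 6.55-fold. With normexp the log2 differences of ZNF560, ZNF334 and ZNF702 were -2.25, -1.46 and -1.87, again smaller than the bounds. ZNF704 and ZNF426 were measured in both lines and were 5.01-fold and 2.17-fold lower in CHP-212 (adjusted p = 3.66e-06 and 0.0211, limma). Each of these was lower in all 4 CHP-212 arrays than at the same time in SK-N-BE(2).

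Higher in CHP-212 was ZNF214, with levels of -2.33, -2.35, -2.45 and -2.11 against -8.79, -8.44, -8.47 and -8.28, at least 16.4-fold. SK-N-BE(2) was at background on all 4 arrays for it. ZNF365, well above background on 2 of 4 SK-N-BE(2) arrays, was at least 10.2-fold higher, and ZNF641 was 2.03-fold higher (adjusted p = 0.000294, limma). With normexp the log2 differences were 2.49 for ZNF214 and 1.70 for ZNF365, both smaller than their bounds. ZNF671, at -0.35 (adjusted p = 0.156, limma), and ZNF114, at 0.21 (adjusted p = 0.347, limma), were not called. When only probes well above background on all 8 arrays were tested, 3 of 19 members were called, ZNF426, ZNF641 and ZNF704. The ZNF704 call was kept under every setting. That of ZNF426 was lost without the CHP-212 array of 0 or 72 h or the SK-N-BE(2) array of 12 or 72 h. That of ZNF641 was lost with normexp and without the CHP-212 array of 24 h or the SK-N-BE(2) array of 12 or 72 h.

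**Figure D4:**
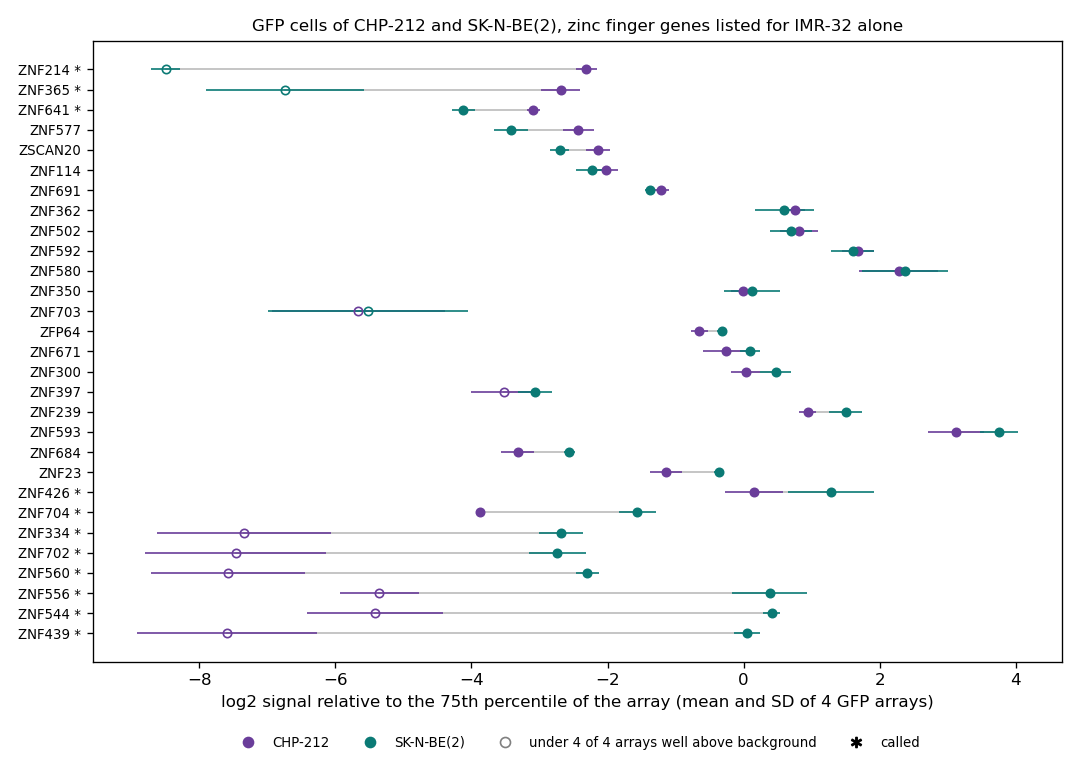
Mean and SD of 4 GFP arrays in CHP-212 and SK-N-BE(2) for the 29 tested zinc finger genes listed for IMR-32 alone, as log2 signal relative to the 75th percentile of the array (horizontal axis). Asterisks mark the 11 called genes, and most of the widest gaps have the lower line at background.

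The positions of the members were read next. In the RefSeq annotation (GRCh38.p14), 24 of the 55 lay on chromosome 19, or 43.6%, against 7.24% of all coding genes. Of the 13 chromosome 19 members listed for IMR-32, 6 were called higher, 4 lower, and 4 of them came near on or off. The 20 listed members on other chromosomes had 6 higher, 11 lower and 1 near on or off. These counts are a description, since the listed contrast chose the members. The members were also chosen by name. Their share on chromosome 19 was not set against that of all zinc finger genes, so nothing is read from it.

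Some of the chromosome 19 members were neighbours. ZNF577 and ZNF649 lay next to each other, and ZNF350 followed ZNF649 with 1 coding gene between, and all 3 were higher in FOXP1 cells of IMR-32, at 1.52, 4.08 and 1.02. ZNF560 and ZNF426 were also adjacent, and there ZNF560 was higher by at least 4.17-fold and ZNF426 lower at -1.05. Neighbours thus differed in the same direction in one place and in opposite directions in another.

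Promoter sequences from RefSeq (GRCh38.p14), 250 bases before to 50 after the start, matched 45 of the 55 members. The ratio of observed to expected CpG dinucleotides had a median of 0.75 over the members and 0.58 over all 27305 promoters. It was at least 0.6 in 31 members (68.9%) and in 49.0% of all promoters, and within IMR-32 in 7 of 9 higher members (77.8%), 12 of 13 lower members (92.3%) and 12 of 23 not called (52.2%), which include members not tested there and members listed for other lines. Of the 4 near on or off in IMR-32 it was so in 2, with a median of 0.55. The forkhead motif GTAAACA, searched on both strands, was in 0 of the 45 and in 3.41% of all promoters. ATAAACA was in 1, ZNF718, and in 4.33% of all promoters. The set of all promoters was not limited to coding or zinc finger genes, while the members were chosen by name and by contrast. These shares are therefore a description.

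The promoters of the members near on or off in IMR-32, as far as the table holds them, are printed because their transcripts were detected in one culture and not in the other. That of ZNF300 is printed for the largest difference among members measured on all 8 arrays. Capitals mark CpG dinucleotides. Their positions are chr20:46513510-46513809 (minus strand) for ZNF334, chr19:2867085-2867384 (plus strand) for ZNF556, chr19:9498567-9498866 (minus strand) for ZNF560, chr19:57727575-57727874 (minus strand) for ZNF671 and chr5:150904931-150905230 (minus strand) for ZNF300.
ZNF334: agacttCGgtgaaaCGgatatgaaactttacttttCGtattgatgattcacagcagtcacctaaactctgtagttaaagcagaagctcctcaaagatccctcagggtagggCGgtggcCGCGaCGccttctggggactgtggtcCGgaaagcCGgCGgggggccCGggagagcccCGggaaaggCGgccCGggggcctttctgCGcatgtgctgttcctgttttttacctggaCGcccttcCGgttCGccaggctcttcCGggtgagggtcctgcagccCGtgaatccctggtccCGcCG
ZNF556: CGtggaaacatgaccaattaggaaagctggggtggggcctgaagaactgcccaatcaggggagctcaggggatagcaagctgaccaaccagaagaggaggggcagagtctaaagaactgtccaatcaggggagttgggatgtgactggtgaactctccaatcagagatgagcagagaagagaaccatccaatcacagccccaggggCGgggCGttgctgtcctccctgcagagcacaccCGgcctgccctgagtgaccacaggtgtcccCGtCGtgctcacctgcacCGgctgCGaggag
ZNF560: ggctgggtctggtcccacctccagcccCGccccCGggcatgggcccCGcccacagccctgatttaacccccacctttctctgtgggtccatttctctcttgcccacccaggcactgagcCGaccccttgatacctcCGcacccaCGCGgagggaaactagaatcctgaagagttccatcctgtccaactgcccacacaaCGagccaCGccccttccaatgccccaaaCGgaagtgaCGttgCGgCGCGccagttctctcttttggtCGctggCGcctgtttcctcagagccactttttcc
ZNF671: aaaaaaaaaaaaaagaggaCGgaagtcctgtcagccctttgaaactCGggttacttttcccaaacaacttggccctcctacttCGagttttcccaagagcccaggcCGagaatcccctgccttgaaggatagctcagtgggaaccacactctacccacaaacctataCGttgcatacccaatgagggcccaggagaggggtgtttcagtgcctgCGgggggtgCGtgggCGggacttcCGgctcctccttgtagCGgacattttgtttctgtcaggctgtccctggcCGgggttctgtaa
ZNF300: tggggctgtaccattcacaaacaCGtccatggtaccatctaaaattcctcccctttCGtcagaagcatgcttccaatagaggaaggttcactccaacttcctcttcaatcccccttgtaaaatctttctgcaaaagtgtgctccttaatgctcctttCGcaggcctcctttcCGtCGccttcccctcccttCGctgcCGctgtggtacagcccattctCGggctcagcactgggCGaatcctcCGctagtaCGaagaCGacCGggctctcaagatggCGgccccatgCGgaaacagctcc
ZNF334 holds 22 CpG dinucleotides in this window, ZNF560 holds 16, ZNF300 holds 15, ZNF671 holds 11 and ZNF556 holds 8. The genes higher in FOXP1 cells (ZNF671, ZNF560, ZNF300) and those lower there (ZNF334, ZNF556) are both found at higher and lower counts. None of the 5 holds either forkhead motif, which says only that these letters are not in this window. Methylation of these promoters was not measured on the arrays.

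Of 17 genes for cofactors of KRAB proteins, 2 could be tied to a probe, which only the study's published list allowed. HDAC1, a histone deacetylase, was 3.19-fold lower in FOXP1 cells of IMR-32, and MORC3, a chromatin ATPase, was 2.00-fold higher there. Both are on the IMR-32 sheet, so these values are descriptions too. In lines that do not list them the values are descriptions as well, with HDAC1 at 0.21 and MORC3 at -0.52 in CHP-212. On the arrays labelled FOXP1 of SK-N-BE(2) they were at 0.09 and 0.30.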

How the data were processed

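RNA of 3 neuroblastoma lines was hybridised to one-colour Agilent arrays, 24 arrays in 6 groups of 4 (line and transgene) on 6 slides. Per the file headers, Agilent Feature Extraction 10.7.3.1 gave processed signal intensities with the background subtracted and trends across the array removed, not normalized between arrays. The value table of intensity that the authors deposited is quantile normalized. The deposited files name probes, not genes; symbols came from the study's supplementary list of differing genes, which was available in part (IMR-32: 1997 of 2370 entries, CHP-212: 1489 of 1489, SK-N-BE(2): 642 of 855). Its fold and p columns were not used. The symbols of all 55 members matched a RefSeq gene, 3 of them through an older symbol.

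Control spots were left out first. Log2 processed signals were then set relative to the 75th percentile of each array, and 311 outlier spots were left out after that. The share of the 43291 probes well above background ranged from 53.9 to 82.3% per array. The number of arrays limits the precision. The floor for groups with only some arrays at background was chosen after the data were seen. FOXP1 and GFP arrays were compared unpaired in each line with limma 3.58.1 in R 4.3.3, with Benjamini-Hochberg adjustment over all probes tested (well above background on at least 4 of 8 arrays), an adjusted p under 0.05 and a fold of at least 2. Times (12 against 0 h, 72 against 24 h) were compared with the culture as a block on probes well above background on at least 12 of 24 arrays, and GFP cells of CHP-212 and SK-N-BE(2) as the lines were. Tables and figures used Python 3.11.15, numpy 2.4.6, scipy 1.17.1, pandas 2.3.3 and matplotlib 3.10.9. The fits were tested on simulated data.

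Named with values were the members near on or off, up to 5 called members with the highest and up to 5 with the lowest difference per line, members on 2 sheets, those called in a line that does not list them, those just inside and outside 2-fold, those called over time, and FOXP1; of the lists, up to 3 called genes each way per line. ZNF671 and ZNF114 in CHP-212, ZNF641 in SK-N-BE(2) and the members named by unadjusted p, in the line comparison or by position were chosen after their values were seen. The members and lists (KRAB cofactors, other C2H2 factors, and markers of sympathetic neuroblasts, mesenchymal-type cells, Schwann cells and leukocytes) were chosen with earlier results of these data known.

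The time point in the labels pairs FOXP1 and GFP arrays, which also shared a slide. Their deviations from the group means correlated, for 0, 12, 24 and 72 h, at 0.426, 0.601, 0.375 and 0.438 (IMR-32), at 0.0535, 0.491, 0.549 and 0.445 (CHP-212) and at 0.37, 0.67, 0.584 and 0.435 (SK-N-BE(2)). Alternatives were normexp (offset 50), quantile normalization, the authors' table, other filters on dim probes, time point or slide as a block, each slide alone, the methods' t-test, the times after 0 h alone, 1 fit over 24 arrays, no culture block, a 2-fold limit over time, and leaving out each array or line. Normexp used the median spot intensity, since the files hold no mean.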

Additional observations from a re-analysis of the deposited data

Results flagged for a closer look

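In 1 of 28 groups of 4 arrays a value stood apart from the rest, where chance gives about 1 in 20. It was ZNF580 in GFP cells of IMR-32, at 2.31 at 72 h against 1.97, 1.96 and 1.98 at the earlier times.

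Among members tested in both lines of a pair, 7 had FOXP1 minus GFP differences of opposite direction at all 4 times, which gave 10 such pairs. The differences between the lines were not tested. ZNF671 was higher in FOXP1 cells of IMR-32 and lower in CHP-212 (-1.00) and on the arrays labelled FOXP1 of SK-N-BE(2) (-0.26), and ZNF114 was higher in IMR-32 and lower in CHP-212 (-0.67) and SK-N-BE(2) (-0.18). ZNF502 was higher in IMR-32 (1.30) and lower in CHP-212 (-0.37). ZNF423 was higher in CHP-212 (at least 1.82, with 2 of 4 GFP arrays at background) and lower in IMR-32 (-0.50). ZNF365 was higher in CHP-212 (0.25) and lower in IMR-32 (-1.47). ZNF558 was higher on the arrays labelled FOXP1 of SK-N-BE(2) (0.18) and lower in FOXP1 cells of IMR-32 (-0.31) and CHP-212 (-1.11), and ZSCAN20 was higher in SK-N-BE(2) (0.34) and lower in IMR-32 (-1.20).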

How the results depend on the processing

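Among 20 combinations of a named member and a line, 19 kept their direction under each of the 20 or 21 alternatives tried, and 7 also kept their side of the threshold. The exception in direction was ZNF649 in SK-N-BE(2), whose difference of 0.06 became -0.01 without the GFP array of 72 h, -0.22 without the array labelled FOXP1 of 24 h and -0.09 within the slide of 0 and 12 h, and ran up to 0.31 when another array was left out. In IMR-32 the 27 called members became 10 with normexp, and 22 to 28 when an array was left out; the cause was not tested. Over all probes, normexp took the calls from 4122 to 1426. In CHP-212 the 5 called members became 3 with normexp, 3 with the methods' t-test after Benjamini-Hochberg adjustment, 2 to 6 when an array was left out and 3 within the slide of 24 and 72 h; the cause was not tested. They became 0 within the slide of 0 and 12 h, with 2 arrays against 2, and 0 when only probes well above background on all 8 arrays were tested, a filter that keeps none of the 5. Over all probes, the 997 calls of CHP-212 became 605 with normexp, 650 with the t-test after adjustment, 628 with that filter, 620 without the GFP array of 72 h, and 9 and 514 within the early and the late slide. In SK-N-BE(2), 0 members were called under all 21 alternatives, while the 245 calls over all probes became 537 with the unadjusted t-test with its 2-fold limit, 121 after adjustment, 40 without 0 h, and 7 and 0 within the early and the late slide. At 12 h against 0 h, 0 called members became 2 with normexp and 1 with the filter for all arrays, and 852 calls over all probes became 2062 with normexp, 559 without a filter, 72 without the culture block, 503 with a 2-fold limit, 69 without IMR-32 and 36 without SK-N-BE(2). At 72 h against 24 h, 0 were called throughout. In GFP cells, the 11 members called between CHP-212 and SK-N-BE(2) became 3 with the filter for all 8 arrays, which tests fewer genes (10121 to 6629 over all probes), and 9 to 12 when an array was left out.

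With the time point as a block, 27 members were called in IMR-32, 5 in CHP-212, 0 in SK-N-BE(2) and 11 between the GFP cells, and the pairing changed no other member's call; over all probes of SK-N-BE(2), 245 calls became 477. Each slide alone, the 2-fold limit over time and the time block between lines were chosen after seeing the data. Signal over background limited the early CHP-212 arrays, where dim members have only a bound or no value, and 3 members were tested in no line.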

Other observations

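Other C2H2 factors, outside the ZNF, ZFP and ZSCAN names, had a probe for 34 of 36 genes through the study's published list, so their values in a line that lists them are descriptions. In IMR-32, FOXP1 cells had 7 of 27 tested genes called higher and 13 lower, beside 6.34% and 5.86% of all probes. The calls were 19 of 21 listed genes and 1 of 6 not listed, so they follow from the choice and nothing is read from them. SP5, a Wnt target of the Sp family, was 473-fold higher, KLF2 at least 7.48-fold, with 2 of 4 GFP arrays well above background, and IKZF2, of the Ikaros family, 7.94-fold. GLI3, a mediator of hedgehog signals, was at least 47.4-fold lower, with the FOXP1 culture at background on all 4 arrays, SALL4 37.5-fold lower and BCL11B 29.2-fold lower. SNAI1, a repressor of E-cadherin that the part of the IMR-32 sheet at hand does not hold, was at a log2 difference of -1.35 with no overlap. In CHP-212, 7 of 23 were called higher and 1 lower, beside 1.94% and 1.09% of all probes, and all 8 are among the 11 tested genes on its sheet. They were led by GLIS1 at 2.34, EGR2 at 1.93 and EGR4 at 1.83, with SALL1 at -1.55. Arrays at background enter these values, and with those of the dimmer culture at their floor EGR2 was at 1.32, EGR4 at 1.79 and SALL1 at -0.52. On the arrays labelled FOXP1 of SK-N-BE(2), 1 of 21 was called, beside 0.720% of all probes, SALL4 at 2.13, which its sheet lists.

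Markers of sympathetic neuroblasts had a probe for 8 of 16 genes, again only through the published list. In IMR-32, FOXP1 cells had 6 of 7 tested markers called higher and 0 lower, beside 6.34% of all probes higher. All 6 are on the IMR-32 sheet, so the count follows from the choice and nothing is read from it. The vesicular transporter SLC18A1 was at least 68.0-fold higher (2 of 4 GFP arrays well above background), the noradrenaline enzyme DBH 14.5-fold and tyrosine hydroxylase, TH, 10.1-fold. The log2 of the summed signals of all 8 markers was 6.09, 6.17, 6.47 and 6.64 in FOXP1 cells at 0, 12, 24 and 72 h. In GFP cells it was 3.77, 3.86, 4.38 and 4.88. The STMN2 probe had the highest signal of the 8 in these cultures, and signals of different probes do not rank genes by abundance. In CHP-212, DBH was called higher at 2.07 (0.98 with dim arrays at their floor) and SLC18A2 lower at -1.28 (-1.15) among 6 tested. Both are on its sheet, and 1.94% of all probes were called higher there and 1.09% lower. On the arrays labelled FOXP1 of SK-N-BE(2), SLC6A2 was called lower at -1.28 among 8, beside 0.294% of all probes. The sheet of that line lists SLC6A2, so nothing is read from its call. The part of cell state in the zinc finger genes' differences was not tested. The list of mesenchymal-type markers had 1 of 9 genes with a probe and 0 tested in any line. Of the Schwann cell list, 1 of 5 had a probe, EGR2, tested in CHP-212 alone. Of the leukocyte list, 3 of 4 had a probe. In CHP-212, the 2 tested, HLA-DPA1 at -1.15 and HLA-DPB1 at -1.35, were called lower in FOXP1 cells, beside 1.09% of all probes. Both are on the CHP-212 sheet, so the calls follow from the choice and nothing is read from them. HLA-DPA1 was at -0.04 with dim arrays at their floor.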
